A study of Mus musculus with 24 samples.

Results

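The cytoplasmic ribosomal protein genes were followed through an RNA-seq and an m6A immunoprecipitation data set from mouse embryonic stem (ES) cells. They were taken as every gene in both count tables whose symbol has the form Rpl or Rps with a number and at most 1 of the letters a, x or l, together with Rplp0, Rplp1, Rplp2 and Rpsa and without genes named as pseudogenes. This gave 82 of 47937 genes, 50 of the large and 32 of the small ribosomal subunit. Rpl6l and Rps4l met the rule although the GENCODE annotation lists both as processed pseudogenes, and Rps3a1, Rps27rt, Rpl36al and Fau, for example, fell outside it.

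Nuclear RNA of 4 ES cell lines was sequenced in 2 biological replicates each, once directly (RNA-seq, 8 libraries) and once as input and IP of an m6A MeRIP experiment (16 libraries), in which an antibody to N6-methyladenosine collects methylated RNA fragments. All 4 lines have a 129/Sv × C57Bl6 background. WT26 is the wild-type line from which the Mettl14 KO clone A10 was made by CRISPR, through a homozygous frameshift deletion that truncates the protein. RBC is a second, engineered wild-type line with Rosa26 BirA-V5 and a Cre-ERT2 recombinase, and Mettl3 KO clone 2c4d was derived from it. All lines were grown on gelatin with serum replacement and LIF, and each knockout is 1 clone, so that clone and genotype cannot be told apart. GEO's labels call the molecule total RNA, whereas the methods describe RNA from purified nuclei.

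Ribosomal proteins join the ribosomal RNAs in the nucleolus to form the large and the small subunit, which leave the nucleus and unite on mRNAs. Their genes are transcribed strongly and together in growing cells, their mRNAs are short, and the classical start site lies in a run of pyrimidines, the terminal oligopyrimidine (TOP) element through which mTOR and Larp1 control translation. METTL3 and METTL14 form the nuclear enzyme that methylates adenosines in mRNA, mostly within a GGACT-like context.

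In the RefSeq windows around annotated start sites (build GRCm38.p6), 60 of the 82 genes had at least 1 window. Read from the annotated first base on, a run of a cytosine and at least 5 further pyrimidines was found in 11 of their 72 windows (15.3%). This compares with 1.70% of all 32851 windows. Within 15 bases on either side of that base, on the transcribed strand, such a run was found in 54.2% of their windows and in 26.3% of all windows. The following 30 bases (build GRCm38.p6) show this shared feature for members described further on and for Rpl15, whose run counted from the annotated first base is the longest. Capitals mark the run from that base on. In each of these windows the base before the capitals is also a pyrimidine, so that the whole tract begins upstream.
Rps27 (chr3:90213629-90213658, minus strand): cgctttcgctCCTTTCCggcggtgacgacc
Rps18 (chr17:33955646-33955675, minus strand): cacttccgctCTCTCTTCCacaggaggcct
Rpl38 (chr11:114668570-114668599, plus strand): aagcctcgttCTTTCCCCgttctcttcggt
Rps15a (chr7:118116128-118116157, minus strand): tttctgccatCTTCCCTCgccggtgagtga
Rpl15 (chr14:18270967-18270996, minus strand): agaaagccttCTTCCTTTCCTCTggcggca

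The mRNAs were short and had few of the motifs that the methyltransferase prefers. The median transcript of the 80 members with a coding transcript had 843 nt, compared with 2562 nt over 21557 coding genes, and the median 3' UTR 89 nt, compared with 761 nt. At least 1 GGACT was present in 53.8% of these members and in 87.1% of coding genes, with a median of 0.64 and 1.02 per kb. A GGACT in the 3' UTR was present in 22.5% and 51.7%, respectively.

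The RNA-seq libraries held 11321459 to 13743181 counted reads, and MeRIP libraries 9394163 to 28441282. Ribosomal protein genes took 2.00% to 3.19% of the RNA-seq reads, 0.61% to 0.85% of the input reads and 0.92% to 1.70% of the IP reads. The mRNA of a targeted gene was still present in its knockout, with 880.0 and 821 normalised counts of Mettl3 in Mettl3 KO libraries (928 and 979 in RBC) and 297 and 316 of Mettl14 in Mettl14 KO libraries (401 and 358 in WT26), so that transcript level does not check these genotypes. All 12 ES cell markers were detected in every library, with a summed level of 42581 to 43389.7 normalised counts in WT26, 38599 to 38805 in RBC, 29504 to 29656 in Mettl14 KO and 24113 to 24565 in Mettl3 KO cells. The 7 feeder fibroblast markers summed to 27.3 to 116 normalised counts, with 2 to 4 of them at 0, and the 7 markers of primed epiblast and mesoderm to 117 to 191, with 0 to 2 at 0. The 7 primitive endoderm markers summed to 309.8 to 324 in Mettl14 KO and to 99.8 to 176 in the other lines, and the 6 neural markers to 836 to 957 in WT26 and Mettl14 KO and to 1447 to 1683 in RBC and Mettl3 KO libraries. Their part in the results was not tested. The RBC replicates stood further apart over all genes (chi-square per degree of freedom 35.6 between the 2 libraries) than those of WT26 (2.76), Mettl14 KO (3.24) and Mettl3 KO (5.75).

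The level of the ribosomal protein mRNAs spanned a wide range within 1 line. Per kb of exon and as the mean of both WT26 libraries, Rplp1 stood highest (12878 normalised counts per kb), followed by Rpl36 (7038) and Rps15 (6197). Rplp1 is 1 of the acidic proteins of the stalk, the arm of the large subunit that recruits elongation factors. Its libraries lay close together, at 12845 and 12912 normalised counts per kb in WT26. At the other end of the members that were tested were Rpl39l (159 normalised counts per kb), Rps16 (258) and Rpl24 (263). Still lower were Rpl6l (5.87) and Rpl3l (3.01), the striated muscle form of Rpl3, which did not pass the expression filter. Accordingly, 80 of the 82 members were tested in RNA-seq, among 17022 genes, and all 82 in MeRIP, among 22700 genes and repeat classes. Exon length here joins all annotated transcripts of a gene, such as 499 nt for Rplp1 and 6270 nt for Rps15a. The order per kb therefore depends on the annotation. Rpl24 is overlapped on its own strand by Gm28037, and Rps16 had more normalised counts in the WT26 MeRIP input, as given below. Whether reads were lost from either gene was not tested.

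In Mettl3 KO cells the nuclear level of nearly every ribosomal protein mRNA was lower than in RBC cells. Of the 80 members tested, 77 fell, 1 rose and 2 did not pass the test (edgeR quasi-likelihood test, adjusted p of at most 0.05), whereas 28.1% of all genes tested fell and 25.3% rose. The median log2 fold change was -0.74 (interquartile range -0.89 to -0.51), a level of 0.60 of that in RBC. The median over all genes was 0.00, which the median-of-ratios scaling sets near 0. Scaled by library size alone, the values of all genes moved by a median of 0.15. Both Mettl3 KO libraries lay below both RBC libraries for 78 of 80 members, as they did for 38.2% of all genes tested. In these bulk libraries, fewer cells with a given RNA and less of it per cell cannot be told apart.

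Falls of more than 2-fold were found in 10 of the 80 members tested, compared with 1258 of all 17022 genes tested. Among the 10 were Rpl39l, Rps21, Rpl37a, Rps27l, Rps28, Rps18, Rpl10a, Rps7 and Rpl13, and 6 of the 10 belong to the small subunit. Rps21, a small subunit protein, had 4618 and 5238 normalised counts in RBC and 1972 and 2461 in Mettl3 KO libraries. The groups did not overlap (log2 fold change -1.15 ± 0.09 (SE), adjusted p = 5.5e-09). Rpl37a, a zinc-binding protein of the large subunit, went from 6363 and 6439 to 2466 and 3322 normalised counts (log2 fold change -1.15 ± 0.09 (SE), adjusted p = 5.6e-09). Rps28, another small subunit protein, went from 6879 and 8189 to 3125 and 3866 (log2 fold change -1.11 ± 0.09 (SE), adjusted p = 5.6e-09). In all 3 genes replicate 1 of the Mettl3 KO cells was the lower one, as it was for the median member.

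**Figure D1:**
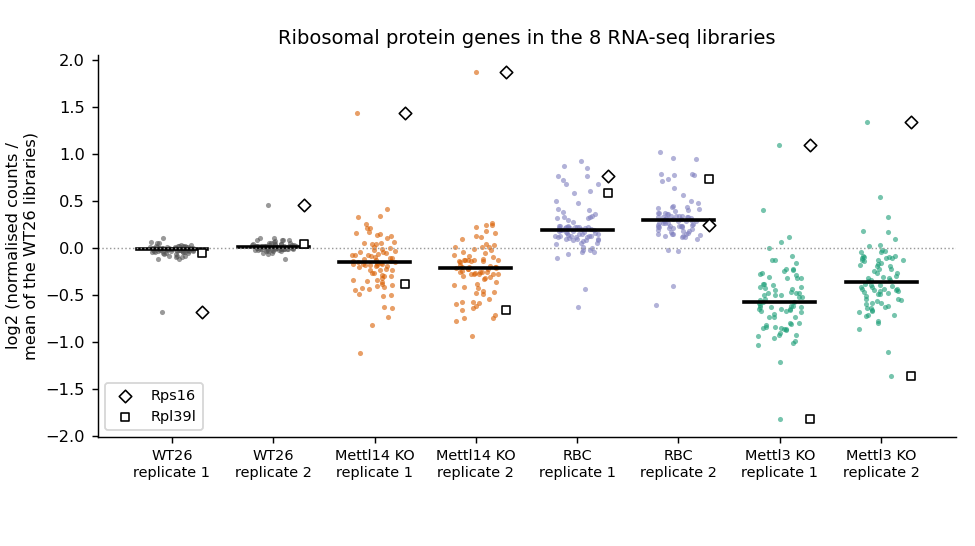
Level of each of the 80 tested ribosomal protein genes (points) in the 8 RNA-seq libraries, as log2 of normalised counts over the mean of the WT26 libraries, with the median as a black bar and Rps16 and Rpl39l as open symbols. The medians of both RBC libraries lie above 0, those of both Mettl14 KO libraries slightly below 0 and those of both Mettl3 KO libraries lowest, while Rps16 goes up in both knockouts.

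Genes of both subunits fell. The median log2 fold change was -0.68 over 48 large subunit genes, of which 47 fell, and -0.87 over 32 small subunit genes, of which 30 fell. The 2 members that did not pass the test were Rpl30 (4789 and 5271 normalised counts in RBC, 4426 and 5148 in Mettl3 KO, log2 fold change -0.07 ± 0.07 (SE), adjusted p = 0.374) and Rps4l (958 and 971 in RBC, 822 and 957 in Mettl3 KO, log2 fold change -0.12 ± 0.08 (SE), adjusted p = 0.201). Rpl5 and Rpl11, which together with a small ribosomal RNA bind the p53 regulator Mdm2, fell by 0.26 ± 0.05 and 0.67 ± 0.06 (SE) on the log2 scale. Rps6, the small subunit protein phosphorylated downstream of mTOR, fell by 0.80 ± 0.06.

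The 37 members with a pyrimidine run near a RefSeq start, such as Rps27 and Rps18 whose start sites are shown above, all fell, with a median of -0.82. Of the 22 tested members with windows but no such run, 21 fell and Rps16 rose, with a median of -0.61. The median was -0.78 for 42 members with a GGACT in the transcript and -0.71 for 37 without one. It was -0.60 for 29 members that host a snoRNA, the small nucleolar RNA that guides ribosomal RNA modification, and -0.83 for the other 51. Members with a pseudogene named after them, whose reads may be shared between near-identical copies, had a median of -0.72 (58 genes), and the 22 without one had -0.84. For the 54 tested members that no other annotated gene overlaps it was -0.76.

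Values of other mRNAs of the same length are given for comparison. Among 355 other coding genes with transcripts of at most 750 nt the median log2 fold change in Mettl3 KO cells was -0.32 and 41.4% fell, while the 30 members of that length had a median of -0.88. Between 1500 and 3000 nt the values were -0.05 for 4689 other genes and -0.46 for 9 members. The 13 protein-coding mitochondrial transcripts, which are made outside the nucleus, took 1.01% and 1.01% of the counts in Mettl3 KO and 2.04% and 2.11% in RBC libraries (1.23% and 1.19% in WT26, 1.31% and 1.39% in Mettl14 KO). The part of transcript length and of cytoplasmic RNA in these values was not tested.

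In Mettl14 KO cells fewer members were called and the median was nearer to 0. Of the 80 members, 45 fell, 7 rose and 28 did not pass the test against WT26, where 27.0% of all genes fell and 25.5% rose. The median log2 fold change was -0.18 (interquartile range -0.34 to -0.04), a level of 0.881 of that in WT26. It was -0.14 for the large and -0.25 for the small subunit. Other coding genes with transcripts of at most 750 nt had a median of -0.19, and the 30 members of that length -0.20. The primitive endoderm markers named above were higher in these cells, with 5 of 5 tested called, and all 12 ES cell markers fell.

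Among the members that fell furthest in Mettl14 KO cells were Rpl10l, Rps27l, Rps27 and Rpl22. Rps27, a zinc-finger protein of the small subunit, had 5685 and 5569 normalised counts in WT26 and 3378 and 3360.0 in Mettl14 KO libraries, with no overlap (log2 fold change -0.74 ± 0.07 (SE), adjusted p = 8.9e-08). Rpl22, an RNA-binding protein on the surface of the large subunit, went from 3019 and 2906 to 1923 and 1910.4 (log2 fold change -0.63 ± 0.06 (SE), adjusted p = 1.1e-07). In both genes the replicates of a line lay much closer to each other than the lines did.

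The 7 members that rose in Mettl14 KO cells were Rps16, Rpl27, Rpsa, Rps15a, Rpl19, Rpl23 and Rpl4. Rpsa, which also serves as the laminin receptor at the cell surface, had 6826 and 6973 normalised counts in WT26 and 8769 and 8197 in Mettl14 KO cells (log2 fold change 0.30 ± 0.06 (SE), adjusted p = 0.00026). Rpl27 had 1729 and 1729.6 against 2309.5 and 2076 (log2 fold change 0.34 ± 0.08 (SE), adjusted p = 0.0018). Rps15a had 2769 and 2972 in WT26 against 3607 and 3396 (log2 fold change 0.29 ± 0.06 (SE), adjusted p = 0.00071), and Rpl19 5484 and 5558 against 6419 and 6463 (log2 fold change 0.22 ± 0.06 (SE), adjusted p = 0.00546). With the exception of Rps16, each of the 7 fell in Mettl3 KO cells.

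**Figure D2:**
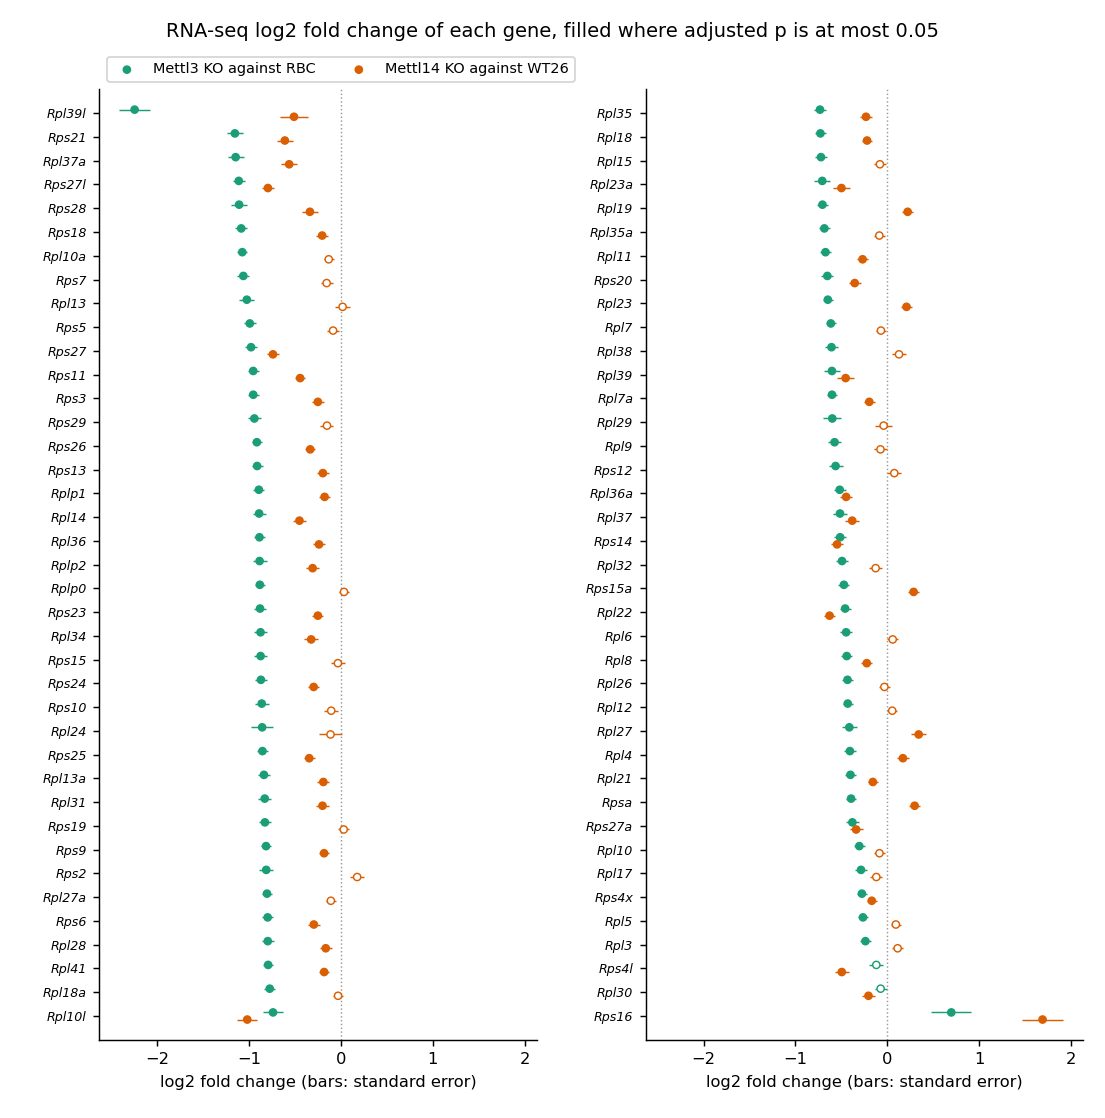
RNA-seq log2 fold change (x axis, bars are standard errors) of 78 ribosomal protein genes in Mettl3 KO against RBC and in Mettl14 KO against WT26, 2 replicates a group, ordered by the Mettl3 KO value and continued in the right panel. Nearly all Mettl3 KO values are filled and negative, whereas Mettl14 KO values lie on both sides of 0 with 28 open symbols, and Rps16 ends the order on the positive side.

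The 2 parental lines differed from each other. In RBC cells 61 members were higher and 2 lower than in WT26, with 17 not passing the test, against 19.6% and 19.2% of all genes, and the median log2 fold change was 0.25. Scaled by library size alone, 21 were higher and 4 lower, with a median of 0.10. With this scaling 12.7% of all genes were higher and 32.3% lower, and their median moved by -0.15. Without RBC replicate 2 the median of the members was 0.19. Rplp0, the stalk protein that anchors Rplp1 and Rplp2, had 9336 and 9659 normalised counts in WT26 and 18037 and 18277 in RBC libraries (log2 fold change 0.93 ± 0.05 (SE), adjusted p = 2.6e-10). Rps15a (log2 fold change 0.95 ± 0.06 (SE), adjusted p = 1.2e-09) and Rpl34 (log2 fold change 0.91 ± 0.07 (SE), adjusted p = 2.5e-08) were similar, as were Rpl37a and Rps13 (log2 fold changes 0.77 and 0.76). The 2 members lower in RBC were Rps4l (-0.61) and Rpl10l (-0.42).

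Set against both parental lines, the Mettl3 KO level was still low. Its libraries lay below both WT26 libraries for 70 of 80 members and above them for 4, whereas 39.1% of all genes lay below and 39.1% above, and the median log2 ratio to WT26 was -0.45. The order of group means was Mettl3 KO, Mettl14 KO, WT26, RBC from low to high for 44 members, and the mean was lowest in Mettl3 KO cells for 61 and highest in RBC cells for 71. The median member had 2816 and 3267 normalised counts in Mettl3 KO and 3672 and 3479 in Mettl14 KO libraries, and 4056 and 4033 in WT26 and 4739 and 5212 in RBC, and these 4 ranges do not overlap.

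The log2 fold change differed between the knockouts for most members. Tested as an interaction, with each knockout against its own parental line, the Mettl14 KO change was the higher one for 66 members and the lower one for 1, while 13 did not pass (all genes, 22.4% and 20.8%). The median difference of the log2 fold changes was 0.58. Apart from Rpl39l and Rps16, described below, the largest differences were those of Rpl13 (1.04 ± 0.11, SE), Rps2 (0.99 ± 0.11) and Rpl10a (0.94 ± 0.08). Rpl13 had 5399 and 6072 normalised counts in WT26 and 5909 and 5708 in Mettl14 KO libraries, and 6541 and 7233 in RBC against 3033 and 3741 in Mettl3 KO libraries, so that only the Mettl3 KO libraries stood clearly below the rest. Of 5 members with a difference below 0, Rps4l was the 1 that passed the test (difference of the log2 fold change -0.38 ± 0.11 (SE), adjusted p = 0.0082), a call that was lost without Mettl14 KO replicate 2 (-0.30) or without WT26 replicate 2 (-0.29). Because the knockouts were made in different lines, parental background and targeted gene cannot be told apart in this difference.

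All 3 stalk proteins fell in Mettl3 KO cells, and Rplp1 and Rplp2 also fell in Mettl14 KO cells. Rplp0 had 9514 and 10177 normalised counts in Mettl3 KO cells (log2 fold change -0.88 ± 0.05 (SE), adjusted p = 2.5e-10), close to the WT26 (9336 and 9659) and Mettl14 KO levels (9845 and 9602), while RBC stood apart above. Rplp1 and Rplp2 fell by 0.89 ± 0.06 and 0.89 ± 0.08 (SE) in Mettl3 KO and by 0.18 ± 0.06 and 0.31 ± 0.07 in Mettl14 KO cells. Rplp0 had a log2 fold change of 0.03 in Mettl14 KO cells (adjusted p = 0.617). Rpsa fell in Mettl3 KO cells (8117 and 8023 against 5832 and 6448, log2 fold change -0.39 ± 0.06 (SE), adjusted p = 1.3e-05), in contrast to its rise in Mettl14 KO cells.

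Some ribosomal proteins have paralogues that stand in for them in certain tissues, and 2 of these, Rpl39l and Rpl10l, were the members that fell furthest in either knockout. Rpl39l (chr16:10170226-10174911), the germ cell form of Rpl39, had 128 and 136 normalised counts in WT26 and 101 and 83.8 in Mettl14 KO libraries, and 198 and 219.8 in RBC against 37.4 and 51.4 in Mettl3 KO libraries. Both Mettl3 KO values were far below all others (log2 fold change -2.25 ± 0.17 (SE), adjusted p = 3.5e-09), a level of 0.211 of that in RBC. Rpl39 itself went from 3222 and 3644 to 1987 and 2542 (log2 fold change -0.60 ± 0.09 (SE), adjusted p = 1.8e-05). The interaction value of Rpl39l was 1.74 ± 0.23 (adjusted p = 1.1e-05) and that of Rpl39 0.15 ± 0.13 (adjusted p = 0.364).

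Rpl10l (chr12:66283379-66284401), an intronless copy of Rpl10 best known from spermatocytes, was low in both knockouts. It had 288 and 278 normalised counts in WT26 and 131 and 148 in Mettl14 KO libraries (log2 fold change -1.02 ± 0.11 (SE), adjusted p = 3.6e-07), and 210.4 and 214 against 123 and 132 in RBC and Mettl3 KO (log2 fold change -0.74 ± 0.11 (SE), adjusted p = 2.7e-05). Rpl10 had log2 fold changes of -0.09 (adjusted p = 0.229) in the Mettl14 KO and -0.30 in the Mettl3 KO clone (adjusted p = 0.00023). Rps27l, a p53-induced relative of Rps27, fell in both knockouts along with its parent. It had 2072 and 2127 normalised counts in WT26 and 1191 and 1228 in Mettl14 KO libraries, and 2437 and 2700.2 in RBC against 1097 and 1283 in Mettl3 KO libraries (log2 fold changes -0.79 ± 0.06 and -1.11 ± 0.06, SE). Rps27 fell by 0.98 ± 0.07 in Mettl3 KO cells.

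Rps4l (chr6:148354656-148355598), a processed copy of the X-linked Rps4x, had 1386 and 1562 normalised counts in WT26 and 1098 and 992 in Mettl14 KO cells (log2 fold change -0.50 ± 0.07 (SE), adjusted p = 2e-05), whereas Rps4x fell by 0.17 ± 0.05 and 0.28 ± 0.05 in Mettl14 KO and Mettl3 KO cells. Outside the symbol rule, Rpl22l1, the paralogue of Rpl22, fell by 1.43 ± 0.08 in Mettl3 KO cells, and Rpl36al by 0.43 ± 0.08, next to 0.52 ± 0.06 for Rpl36a. Reads that match a parent and its copy equally well could be split between them, so these values are uncertain for the copies.

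**Figure D3:**
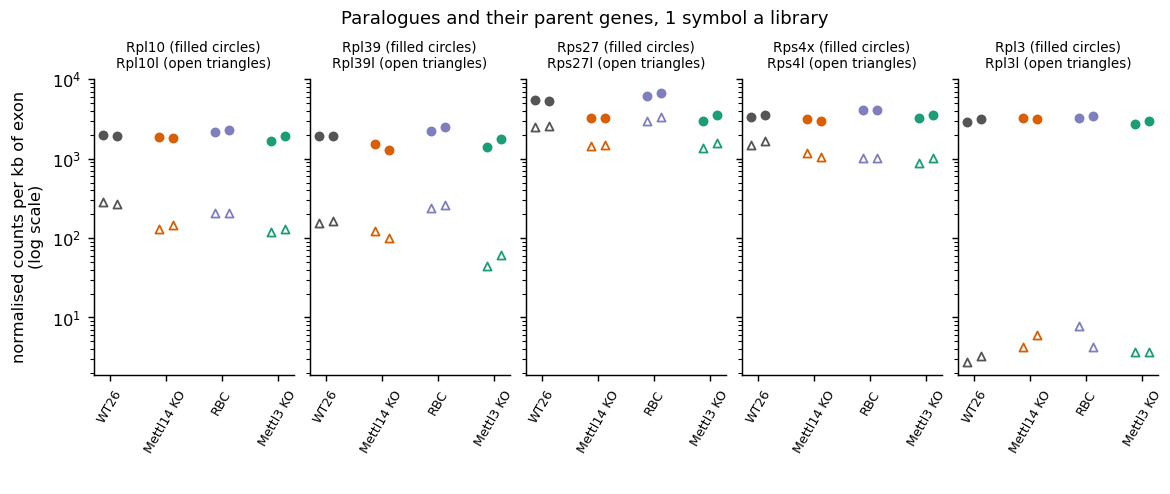
Level of 5 parent genes (filled circles) and their paralogues (open triangles) in normalised counts per kb of exon (log scale) in the RNA-seq libraries of the 4 lines, 1 symbol a library. The paralogues lie below their parents in every library, Rpl39l drops most in Mettl3 KO and Rpl10l most in Mettl14 KO cells.

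Rps16 (chr7:28350652-28353155), a small subunit protein that reaches the transfer RNA near the decoding site, was the 1 member that rose in both knockouts. It had 204 and 449.9 normalised counts in WT26 and 882 and 1196 in Mettl14 KO libraries, and 558 and 387 in RBC against 699 and 827 in Mettl3 KO libraries. Both knockouts lay above their parental lines (log2 fold change 1.69 ± 0.22 (SE), adjusted p = 5.2e-06, and log2 fold change 0.70 ± 0.22 (SE), adjusted p = 0.012), although the WT26 replicates differed by more than 2-fold. The Mettl3 KO call was lost with the DESeq2 Wald test (log2 fold change 0.69) and without RBC replicate 2 (0.45). In the MeRIP input the same gene had 1025 and 837 normalised counts in WT26 and 786 and 695 in Mettl14 KO libraries, and 1243 and 429 in RBC against 703 and 319.5 in Mettl3 KO libraries. There its log2 fold changes were -0.33 (adjusted p = 0.982) and -0.70 (adjusted p = 0.85), of the opposite sign to RNA-seq. Over the 8 RNA-seq libraries its log2 level had a Pearson r of -0.53 with the mean of the other members, whose median r was 0.92 (a description over 80 genes that share their libraries). Rps16 has 2 pseudogenes named after it.

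Other genes of the translation machinery had medians nearer to 0, and whether they differ from the ribosomal proteins was not tested. Of all genes tested, 28.1% fell and 25.3% rose in Mettl3 KO, and 27.0% fell and 25.5% rose in Mettl14 KO cells. Of 15 elongation and termination factors, 8 fell and 3 rose in Mettl3 KO cells (median -0.20), and 6 fell and 4 rose in Mettl14 KO cells (median -0.02). Tpt1, a growth-related TOP mRNA, fell by 1.15 ± 0.07 and Eef1b2, an exchange factor of elongation, by 0.85 ± 0.06 in Mettl3 KO cells, whereas Eef2k, the kinase that slows elongation, rose by 0.88 ± 0.12 (SE). Of 37 initiation and poly(A) binding factors, 18 fell and 4 rose in Mettl3 KO (median -0.14) and 20 fell and 5 rose in Mettl14 KO cells (median -0.15). Eif1, which helps to select the start codon, rose by 0.91 ± 0.05 in Mettl14 KO cells, and Eif3k fell in both (-0.58 ± 0.06 and -0.92 ± 0.06).

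Of 58 ribosome biogenesis genes, 28 fell and 4 rose in Mettl3 KO (median -0.15) and 23 fell and 11 rose in Mettl14 KO cells (median -0.08). Ftsj3, a pre-rRNA processing factor, rose in both (0.51 ± 0.05 and 0.32 ± 0.05), and Ltv1, which matures the small subunit, fell by 0.75 ± 0.09 in Mettl3 KO cells. Of 15 genes of RNA polymerase I and rDNA transcription, 7 fell and 2 rose in Mettl3 KO (median -0.12) and 4 fell and 2 rose in Mettl14 KO cells (median -0.04). Of 15 regulators of ribosomal protein mRNAs, 5 fell and 4 rose in Mettl3 KO (median -0.02) and 6 fell and 3 rose in Mettl14 KO cells (median -0.06). Over all genes, 28.1% fell and 25.3% rose in Mettl3 KO, and 27.0% and 25.5% in Mettl14 KO cells. The regulators in Mettl3 KO cells (33.3% and 26.7%) were near these shares. So were the falls of the RNA polymerase I genes in Mettl14 KO cells (26.7%). Among the regulators, Larp1, the TOP mRNA binding protein, rose by 0.57 ± 0.05 in Mettl3 KO cells. Myc and Mycn, which drive ribosome production, fell by 1.65 ± 0.20 and 1.02 ± 0.08 in Mettl14 KO cells.

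Mitochondrial ribosomal protein genes, which are nuclear genes for another ribosome, had a median of -0.16 in Mettl3 KO (34 of 77 fell, 15 rose) and -0.13 in Mettl14 KO cells (28 fell, 12 rose). For this and the sets that follow, 28.1% of all genes fell and 25.3% rose in Mettl3 KO cells. In Mettl14 KO cells 27.0% of all genes fell and 25.5% rose. Of 46 ribosomal protein pseudogenes tested, 15 fell and 5 rose in Mettl3 KO cells (median -0.48), and 4 fell and 3 rose in Mettl14 KO cells (median -0.03). Their reads may derive from the parent genes. Of 8 relatives outside the symbol rule that were tested, 7 fell in Mettl3 KO cells (median -0.48), including Fau, which fuses a ribosomal protein to a ubiquitin-like domain (-0.50 ± 0.06), and Rack1, the scaffold on the small subunit (-0.58 ± 0.05). In Mettl14 KO cells 3 of the 8 fell, among them Fau (-0.37 ± 0.06). Of the 12 ES cell markers, 11 fell in Mettl3 KO cells and Klf4 rose.

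The input libraries of the MeRIP experiment measured sonicated nuclear RNA of the same lines. In Mettl3 KO cells 81 of 82 members had a negative log2 fold change against RBC, with a median of -0.61. Over all features the median was 0.01, near 0 by the scaling. Both Mettl3 KO libraries lay below both RBC libraries for 70 members, as they did for 27.6% of all features. None passed the test (edgeR, smallest adjusted p = 0.0877), while 0.573% of all features were called lower and 0.181% higher. At an unadjusted p under 0.05 there were 23 lower and 0 higher members (all features, 6.51% and 5.11%), and the DESeq2 Wald test called 2. The spread shared by all 16 MeRIP libraries (biological coefficient of variation 0.274) was larger than that of the RNA-seq libraries (0.0625), and a fit of the RBC and Mettl3 KO input libraries alone called 44 members lower and 0 higher (all features of that fit, 7.42% and 4.01%). Rpl39l, the lowest here too, had 72.0 and 34.1 normalised counts in RBC and 13.6 and 16.1 in Mettl3 KO input libraries (log2 fold change -1.85 ± 0.56 (SE), adjusted p = 0.172).

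In the Mettl14 KO input 65 of 82 values were negative (median -0.14), and none was called at adjusted p of at most 0.05, against 0.273% of all features called lower and 0.123% higher. At an unadjusted p under 0.05 there were 1 lower and 1 higher (all features, 5.65% and 4.89%), and DESeq2 called 0. Across the 80 members measured in both, the log2 fold changes of RNA-seq and input had a Spearman rho of 0.88 in Mettl3 KO and 0.75 in Mettl14 KO cells, a description across genes that are not independent replicates. Rps16 lay farthest from the line of equal values in both.

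**Figure D4:**
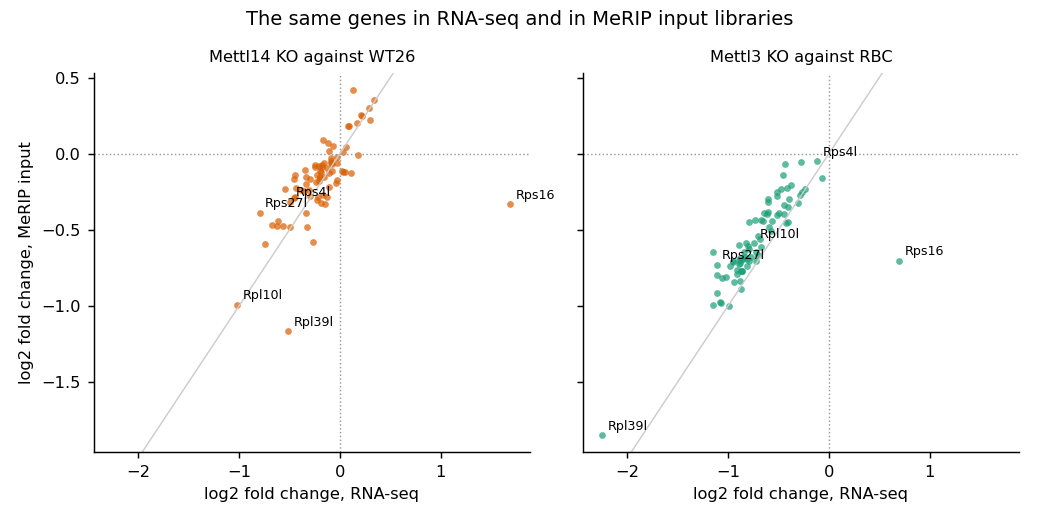
Log2 fold change of 80 ribosomal protein genes in RNA-seq (x axis) and in MeRIP input libraries (y axis), for Mettl14 KO against WT26 (left) and Mettl3 KO against RBC (right), with equal values on the grey line. In Mettl3 KO cells nearly all points lie to the lower left of 0, with Rpl39l at the far end and Rps16 alone on the right.

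Recovery of the ribosomal protein mRNAs in the m6A IP differed between the replicates of 3 lines. The log2 ratio of IP to input had a median over the 82 members of 0.58 in replicate 1 and -0.34 in replicate 2 of WT26, where 72 and 28 members were above 0. It was 0.51 and -0.21 in RBC cells, and 0.59 and -0.28 in the Mettl14 KO clone. Both Mettl3 KO replicates were high, at 0.75 and 0.82, with 78 and 71 members above 0. Over all features tested the medians of the same library pairs lay between -0.03 and 0.03, near 0 by the scaling. The 1004 other coding genes with transcripts of at most 1000 nt had medians of 0.33 to 0.66 in all 8 pairs, whereas the 52 members of that length had 0.56 to 0.93 in replicate 1 of all lines and replicate 2 of Mettl3 KO cells and -0.26 to -0.08 in the other 3 pairs. The order of the members was shared by the replicates (Spearman rho 0.82 in WT26, 0.79 in RBC, 0.75 and 0.81 in the Mettl14 and Mettl3 KO clones, as descriptions over 82 genes).

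**Figure D5:**
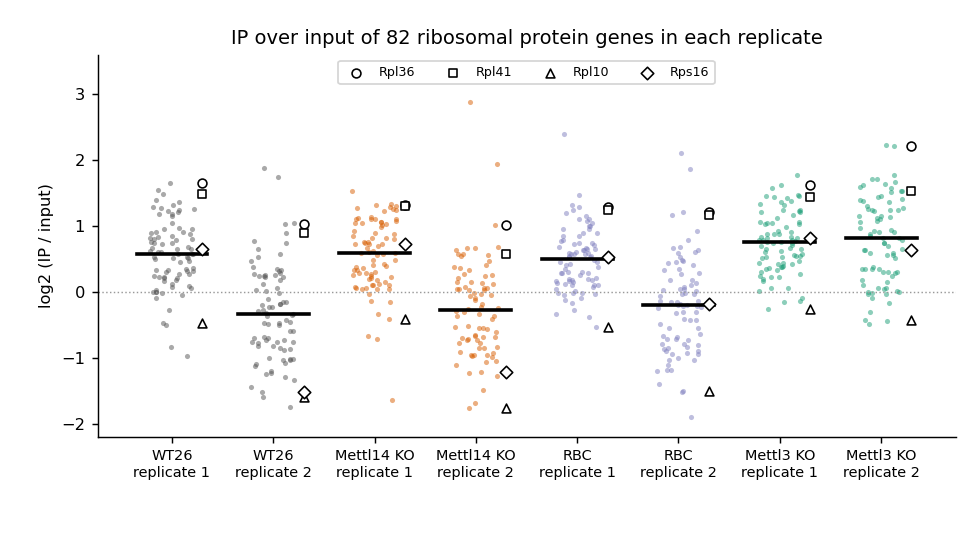
Log2 ratio of IP to input of each of the 82 ribosomal protein genes (points) in the 2 replicates of the 4 lines, with the median as a black bar and 4 genes as open symbols. The medians are near 0.5 or higher in replicate 1 of each line and in both Mettl3 KO replicates, and below 0 in replicate 2 of WT26, Mettl14 KO and RBC, while Rpl36 and Rpl41 stay above 0 throughout.

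With both replicates fitted together, between 7 and 18 of the 82 members were called higher in IP than in input in a line. In WT26, 10 were called higher and 1 lower in IP than in input (all features, 16.9% and 15.9%), with a median of 0.15. In RBC it was 7 and 0 (all features, 15.4% and 12.9%), with a median of 0.18, and in Mettl14 KO cells 11 and 1 (13.5% and 11.9%), with a median of 0.22. The Mettl3 KO clone had 18 of 82 higher and 0 lower (2.74% and 2.19%), with a median of 0.78. Scaled by library size alone, 22 members were higher in WT26, 24 in the Mettl14 KO, 24 in RBC and 40 in the Mettl3 KO (all features, 29.2%, 25.9%, 29.5% and 12.2%), and 0 were lower, with the median of all features moved up by 0.38 to 0.45. The median turned negative without IP replicate 1 in WT26 (-0.27), Mettl14 KO (-0.13) and RBC (-0.33). With 1 library left out, fewer members were called in WT26, Mettl14 KO and Mettl3 KO cells. In RBC fewer or more were called, depending on the library. Shares of all features are not given for these fits, so the counts are not set against a background and are not printed.

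Both parental lines had 6 members in common that were called higher in IP, among them Rps4l, Rpl36, Rpl38, Rpl41 and Rpl26. Of all features, 16.9% were called higher in WT26 and 15.4% in RBC, and the share called in both is not given here. Rpl36 (chr17:56613416-56614243), a short large subunit protein gene with a 383 nt transcript that holds no GGACT, had log2 ratios of 1.65 and 1.03 in WT26 and 1.29 and 1.21 in RBC, and 1.32 and 1.01 in the Mettl14 KO and 1.62 and 2.22 in the Mettl3 KO clone. All 8 values were above 0, and its fitted log2 IP over input was 1.31 ± 0.25 in WT26 (SE, adjusted p = 0.0063) and 1.25 ± 0.25 in RBC (adjusted p = 0.0089). Rpl41 (chr10:128548114-128549305), whose product is a very short peptide where the subunits meet, had ratios of 1.48 and 0.90 in WT26 and 1.24 and 1.16 in RBC, and 1.30 and 0.58 in the Mettl14 KO and 1.43 and 1.53 in the Mettl3 KO clone (WT26 log2 IP over input 1.20 ± 0.27 (SE), adjusted p = 0.0087). Rpl38, the large subunit protein known from the control of Hox mRNA translation, had 1.54 and 0.74 in WT26 and 1.47 and 0.79 in RBC.

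Of these, Rpl41 and Rpl38 have a GGACT in their transcript. These sites are shown in capitals with 8 bases on either side, read from GENCODE transcripts (GRCm38), and both Rpl41 sites lie in its 3' UTR and the Rpl38 site in its coding sequence.
Rpl41 (motif at chr10:128548313-128548317, minus strand): aagctatcGGACTgtgtgctg
Rpl41 (motif at chr10:128548185-128548189, minus strand): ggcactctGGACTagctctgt
Rpl38 (motif at chr11:114668929-114668933, plus strand): gagatcaaGGACTttctgctg

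Rps4l (1.36 and 1.88 in WT26, fitted value 1.45 ± 0.35 in RBC) and Rpl10l (1.40 and 1.75 in WT26, 0.90 and 2.11 in RBC) had the highest means over the parental lines, and differed from most members in that replicate 2 was the higher one. Rpl10l was called in WT26 (adjusted p = 0.0218) but not in RBC (adjusted p = 0.0511). Rpl26 had a fitted log2 IP over input of 0.88 ± 0.26 in WT26 (adjusted p = 0.0209). At the low end stood Rpl6l, with at most 12.6 normalised input counts, then Rpl10 (-0.48 and -1.59 in WT26, -0.53 and -1.50 in RBC, adjusted p = 0.0576 and 0.0634) and Rpl3 (-0.28 and -1.08 in WT26, -0.39 and -1.20 in RBC). Rps15a was called lower in IP in WT26 (fitted value -0.89 ± 0.31, adjusted p = 0.0392) and in Mettl14 KO cells (-1.08 ± 0.31). Across 80 members the mean IP over input of both parental lines had a Spearman rho of -0.41 with transcript length and -0.05 with GGACT per kb, as descriptions across genes whose values share the same 8 libraries.

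No member passed the test for a change of IP over input in a knockout (edgeR interaction term). In Mettl14 KO against WT26, 0 of 82 passed the test and 0 had an unadjusted p under 0.05, with a median difference of 0.01 (interquartile range -0.08 to 0.11). In Mettl3 KO against RBC 0 passed, 4 were higher at an unadjusted p under 0.05 (all features, 1.07%), and the median difference was 0.59, positive for 81 members. DESeq2 called 0 in both, and among all 22700 features the share called was 0.0% in each direction in both comparisons. With 1 library left out, the Mettl14 KO median lay between -0.36 and 0.46. The Mettl3 KO median was 0.19 without RBC IP replicate 2 and 1.14 without RBC IP replicate 1. Rpl36, for example, differed by 0.69 ± 0.35 (SE) between Mettl3 KO and RBC cells (adjusted p = 0.853).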

How the data were processed

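RNA-seq (8 libraries) and m6A MeRIP input and IP (16 libraries) of 4 mouse ES cell lines were analysed from 2 tables of deposited read counts, 1 column a library. Per the submitters' notes, reads were trimmed with cutadapt (1.8.1) and aligned with STAR (2.6.0c) to GRCm38. The authors counted the MeRIP reads over genes and repeat classes with TEtranscripts, which shares out reads that map to several places. The counter of the RNA-seq table is not given in the sources used here. Libraries were stranded, rRNA-depleted total RNA libraries, and 3 MeRIP reactions were combined for each replicate. Repeat classes were used in the fit and are not reported here.

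Counts were divided by median-of-ratios size factors (DESeq2 1.42.0). Genes passing edgeR's filterByExpr were tested with edgeR (4.0.16, R 4.3.3) by the quasi-likelihood test, in 1 fit over the 8 RNA-seq and 1 over the 16 MeRIP libraries, with Benjamini-Hochberg adjustment over all features and calls at adjusted p of at most 0.05. The fit was tested on simulated data. IP over input was the contrast of IP with input in a line, and per replicate log2 of the normalised count plus 0.5 over the same in input. Gene symbols were found for 47224 of 47937 identifiers. Positions and transcripts are from GENCODE M21 (GRCm38), with 1 coding transcript a gene. Summaries used Python (3.11.15).

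The rule named, for each RNA-seq comparison, the 5 highest and 5 lowest called members without overlap of the libraries, the 3 most and 3 least abundant per kb, the 5 highest and 3 lowest in IP over input, those called in both parental lines, paralogues, stalk proteins, Rpsa, and up to 2 genes at each end of a gene list. Rpl5, Rpl11, Rps6, Rps7, Rps18, Rack1 and Klf4 were named beyond it, after their values were seen. Single values of a few genes that the rule would name are not reported here. The members and gene lists were chosen with earlier results of these data known.

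By the paper's methods, input and IP of a replicate are parts of the same RNA. Libraries of a line with the same number were taken to be such pairs, which the labels do not state. The deviations of input and IP libraries from their group means had correlations of 0.20 to 0.28 in the 4 lines, and blocking on these pairs changed no count by more than 1.5 times. With 2 replicates a group, p-values measure only the spread between these samples. Alternatives were TMM or library-size scaling, the DESeq2 Wald test, other filters, fits on the compared libraries or on genes alone, replicate blocks and leaving out each library.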

Additional observations from a re-analysis of the deposited data

Results flagged for a closer look

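The difference between the 2 knockouts, each against its own parental line, met a test of the difference itself for most members. The log2 fold change was higher in Mettl14 KO than in Mettl3 KO cells for 66 members and lower for 1. The difference was 1.74 for Rpl39l, 1.04 for Rpl13, 0.99 for Rps16, 0.99 for Rps2, 0.94 for Rpl10a and -0.38 for Rps4l (edgeR interaction term, adjusted p = 1.1e-05, 8.3e-07, 0.0159, 1.2e-06, 4.7e-08 and 0.0082, respectively). The Rps16 value was no longer past the threshold with the DESeq2 Wald test (0.98), without Mettl14 KO replicate 2 (0.76), without RBC replicate 1 (0.72) or without WT26 replicate 1 (0.51). The Rps4l value was no longer past it without Mettl14 KO replicate 2 (-0.30) or WT26 replicate 2 (-0.29). Parental line, clone and targeted gene cannot be told apart in these differences.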

How the results depend on the processing

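Among the RNA-seq log2 fold changes of the members highest and lowest in each comparison, none changed sign, and 8 recomputed values fell short of the threshold, all of them for Rps16 or Rps4l. Beyond a 2-fold limit, 2 members were called in Mettl14 KO, 10 in Mettl3 KO, 0 in RBC against WT26 and 2 in the difference between the knockouts, and 6, 4, 4 and 18 in IP over input of WT26, the Mettl14 KO, RBC and the Mettl3 KO. Past this limit, 1358 of all 17022 genes were called higher and 1116 lower for the Mettl14 KO. The Mettl3 KO had 1056 and 1258, RBC against WT26 821 and 698, and the difference 1367 and 1006. For IP over input, 3285 of all 22700 features were higher and 3046 lower for WT26. The Mettl14 KO had 2695 and 2223, RBC 3030 and 2470, and the Mettl3 KO 569 and 415. Scaling by library size alone gave RNA-seq medians of -0.58 in Mettl3 KO, 0.10 in RBC against WT26 (25 called) and 0.40 for the difference, and called 22, 24, 24 and 40 members in IP over input of WT26, the Mettl14 KO, RBC and the Mettl3 KO. Fits on the compared libraries alone called 1 member in the Mettl14 KO input, 44 in the Mettl3 KO input and 7, 4, 3 and 39 in IP over input, and the fit on genes alone called 6 in Mettl14 KO IP over input. The DESeq2 Wald test called 2 in the Mettl3 KO input, 14 in RBC and 31 in Mettl3 KO IP over input, and no filter on low counts gave 1, 12 and 34. The cause of these moves was not tested. Shares of all features are not given for the DESeq2, unfiltered and genes-only fits or for IP over input in the compared libraries alone. Those counts are therefore not set against a background.

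The replicate block on the replicate number left the RNA-seq counts at 55 in Mettl14 KO, 78 in Mettl3 KO, 64 in RBC against WT26 and 68 in the difference. RNA-seq deviations of same-numbered libraries correlated by -0.07 (WT26 and Mettl14 KO) and 0.45 (RBC and Mettl3 KO), so the numbers were not read as pairs. IP libraries of the same number correlated by 0.60 to 0.81 between lines. This block called 1 in the Mettl3 KO input. For IP over input it was added after seeing the data, and 18 of 82 members were called for WT26, 16 for RBC and 32 for the Mettl3 KO. Of all 22700 features, the block called 21.0% higher and 20.6% lower for WT26. The RBC shares were 20.2% higher with 18.8% lower, and those of the Mettl3 KO clone 7.45% higher with 6.28% lower. Each member count holds calls of both directions, whose split is not given here. For WT26 and RBC the counts lie below the sum of the higher and lower shares. Whether the calls of a single direction lie below its share cannot be read from these counts. A crossed pairing of RBC with WT26, added after seeing the data because their same-numbered libraries correlated by -0.17, called 65 members in RBC against WT26. The block on pairs of input and IP called 9, 11, 7 and 17 in WT26, the Mettl14 KO, RBC and the Mettl3 KO. Shares of all features are not given for this block, for the crossed pairing or for the blocked RNA-seq and input counts. Those counts are therefore not set against a background.

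Leaving out 1 library at a time, the RNA-seq count was 35 to 50 in Mettl14 KO, 77 to 80 in Mettl3 KO, 35 to 59 in RBC against WT26 and 62 to 72 for the difference, with medians of -0.21 to -0.15, -0.81 to -0.65, 0.19 to 0.30 and 0.47 to 0.69. In IP over input it was 0 to 9 in WT26, 0 to 7 in Mettl14 KO, 0 to 10 in RBC and 1 to 11 in Mettl3 KO cells, with medians of -0.27 to 0.54, -0.13 to 0.52, -0.33 to 0.60 and 0.75 to 0.88. A lone library was assumed to vary like the other groups. The larger spread of the MeRIP libraries limits what could be called there, and intervals of the log2 fold changes rest on 2 replicates.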

Other observations

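Outside the ribosomal protein genes, the 5 genes whose log2 level over the 8 RNA-seq libraries was most like the mean of the members were Xrn2, Cyp51, R3hdm4, Mt2 and Dnajc10 (Pearson r 0.997, 0.994, 0.993, 0.993 and 0.992 over 8 libraries, the highest of all genes tested). Xrn2, the nuclear exonuclease that ends transcription, had 2404 and 2514 normalised counts in Mettl3 KO and 2604 and 2554 in Mettl14 KO libraries, and 2710.2 and 2718 in WT26 and 2846 and 2917 in RBC libraries. Mt2, a metallothionein, had 1249 and 1484 in Mettl3 KO and 2304 and 2449 in RBC libraries. Cyp51, an enzyme of cholesterol synthesis, had 2070.5 and 2270.3 in Mettl3 KO and 2987 and 3248 in RBC libraries.

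The mitochondrial ribosomal protein genes were set beside the cytoplasmic ones in the IP. In WT26, 40 of 80 were called higher and 0 lower in IP than in input (median log2 0.85), and in RBC 38 were higher and 1 lower (median 0.76), whereas 10 and 7 of the 82 cytoplasmic members were called higher. In Mettl3 KO cells 14 of 80 mitochondrial (median 0.63) and 18 of 82 cytoplasmic members (median 0.78) were higher, and in Mettl14 KO cells 31 (median 0.82) and 11 (median 0.22). Of all features, 16.9% were called higher and 15.9% lower in WT26, and 15.4% and 12.9% in RBC. The shares were 2.74% and 2.19% in Mettl3 KO and 13.5% and 11.9% in Mettl14 KO cells. Whether the mitochondrial and cytoplasmic sets differ was not tested.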
